A study of Rattus norvegicus with 14 samples.

Results

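The comparison described here sets the aortas of 5 uremic rats given vitamin D against those of 5 untreated control rats. It covers every gene with at least 1 FPKM (a fragment count corrected for transcript length and library size) in at least 4 of these 10 libraries, which was 9957 of the 17019 genes in the deposited table. All rats were male Dark Agouti rats, and each library came from 1 rat. The uremic rats had lost most of their kidney tissue by 5/6 nephrectomy, lived with uremia for 14 weeks and were given alfacalcidol, a precursor that the liver turns into active vitamin D, at 30 ng 3 times a week over the last 6 weeks. The control rats were left untreated for the same 14 weeks. The series has 14 libraries in all; its other 4 come from normal rats given vitamin D, whose dose and length of treatment the labels do not give. Those 4 rats appear below as values beside a result, and otherwise entered only 1 alternative fit. According to the series notes calcification also needs a phosphate-rich diet, but they do not say which rats ate one. Reduced kidney function, alfacalcidol and possibly diet therefore differ together between uremic and control rats and cannot be told apart here. Values of single rats are given throughout in the order 9, 17, 20, 27 and 28 for uremic rats and 41, 42, 43, 44 and 46 for control rats, and ± is the SD over 5 rats.

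Chronic kidney failure with phosphate retention and active vitamin D is known for medial calcification, the deposition of calcium phosphate along the elastic layers of the arterial wall. Smooth muscle cells of the media normally hold phosphate mineral in check with secreted inhibitors such as matrix Gla protein and with pyrophosphate. In calcifying arteries they are known to lose contractile proteins and to take up matrix genes otherwise used by bone and cartilage. The aortic wall also holds elastin layers made early in life, an endothelium, an adventitia of fibroblasts with resident macrophages, and a coat of fat that dissection removes only in part.

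Defining markers fitted the labelled tissue. The sum of 4 smooth muscle markers (Myh11, Acta2, Tagln and Cnn1) was 8127 to 17812 FPKM in uremic aortas and 19069 to 27099 FPKM in control ones, while B cell markers summed to at most 3.36 FPKM in any rat. Whole reads recovered from the FPKM steps summed to between 1711197 and 4686783 in uremic and between 1473354 and 2218492 in control libraries, and a tested gene had a median of 73 reads per library. Uremic rat 27 had the deepest library, and its label lists 2 index sequences. The labels give no batch or date. They do not say whether the rats came from separate litters or cages, and p-values measure the spread between these 10 rats.

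Of the 9957 genes, 1131 were called higher in uremic aortas (11.4%) and 1046 lower (10.5%). The test was limma on log2(FPKM + 1), and a gene was called at an adjusted p (Benjamini-Hochberg, all 9957 genes) below 0.05. Every adjusted p below comes from that test, and log2 changes are on that scale, which understates the change of genes of low level. Large changes were mostly rises. A log2 change of 1 or more was called for 669 genes (6.72%), of which 421 rose (4.23%) and 248 fell (2.49%). By the ratio of group means, 64 called genes were at least 10-fold higher and 13 at least 10-fold lower. Uremic values lay wholly above control values for 834 genes (8.38%) and wholly below them for 729 genes (7.32%). Of the called genes, 758 higher and 654 lower ones kept their call whichever single rat was left out. Each gene and library carries a modest number of reads, so genes near the filter rest on few of them; 171 genes passed it in exactly 4 libraries, with a median level of 0.933 FPKM, and 205 missed it with 3 libraries, at 0.780 FPKM.

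**Figure D1:**
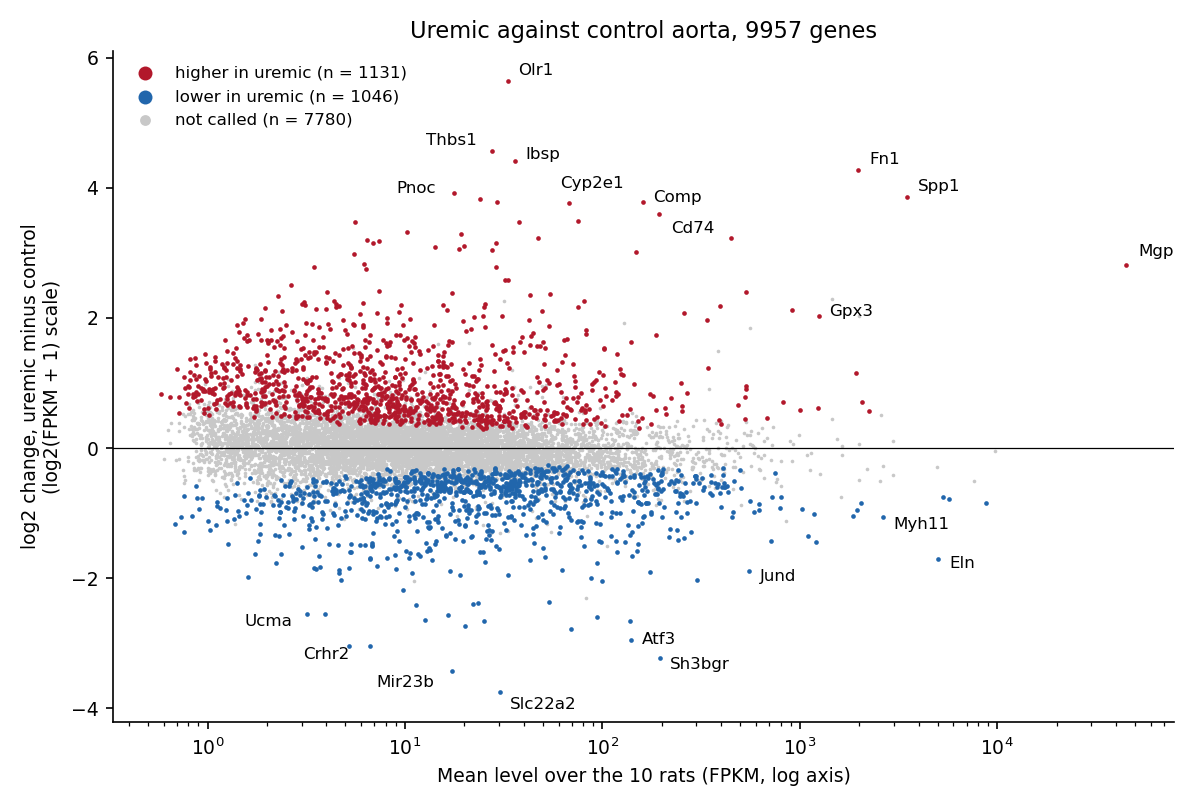
Each point is 1 of 9957 genes; the horizontal axis is its mean level over the 10 rats in FPKM on a log axis, and the vertical axis is the log2 change, uremic minus control, on the log2(FPKM + 1) scale. Red points (1131) were called higher and blue points (1046) lower in uremic aortas, and the points farthest up include Olr1, Thbs1, Ibsp and Fn1, while Slc22a2, Mir23b and Sh3bgr lie farthest down.

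The direction of the calls depended on how much a gene was expressed. Below 2 FPKM, 15.98% of genes were called higher and 4.29% lower, whereas among the 706 genes at 100 FPKM or more 9.21% were called higher and 25.4% lower. The deposited values were not scaled to the same total, which ran from 435446 (uremic rat 27) to 546006 FPKM (uremic rat 9). The median log2 change over all genes was 0.005. Of the summed FPKM, 1 transcript took a large part in uremic aortas. Mgp (matrix Gla protein, a secreted inhibitor of mineral growth) made up 15.8 ± 2.26% of the summed FPKM in uremic libraries, 2.42% to 4.00% in those of control rats given vitamin D and 2.44 ± 0.449% in control libraries (exact 2-sided permutation test, p = 0.00794, the smallest that 5 against 5 rats can give). With all libraries scaled to the same total, 842 genes were called higher and 1581 lower; with the total taken without Mgp, the calls were 1468 higher and 723 lower. Median-ratio scaling gave 1127 higher and 1067 lower. Its size factors were 0.998 to 1.013, so it left the deposited values almost unchanged and is no separate check. In all, 773 higher and 696 lower calls held under all 4 other scalings compared (both totals, median-ratio and quantile). The contrast between high and low genes was read on the deposited scale, and its part in single genes was not tested.

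**Figure D2:**
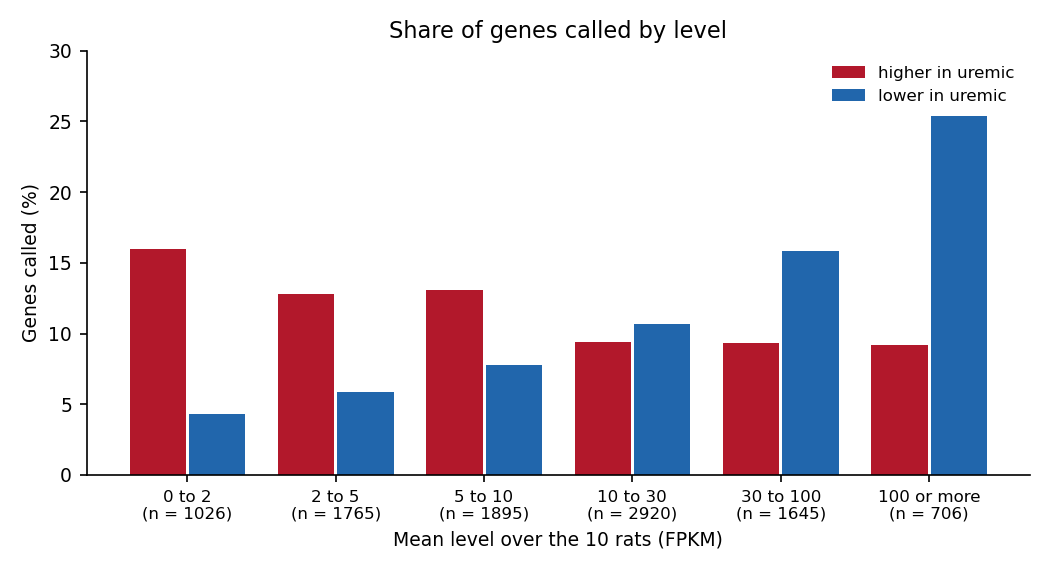
Bars give the share of genes called higher (red) and lower (blue) in uremic aortas, in percent, within classes of mean level over the 10 rats in FPKM; n is the number of genes tested in the class. The share called lower was 4.29% in the lowest class and 25.4% in the highest.

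Genes of mineralised matrix were among the largest rises, but the osteoblast programme did not move as a block. Of 18 tested genes in the list of osteoblast and osteocyte genes, 5 rose (27.8%), 4 fell (22.2%) and 9 were not called. Over all genes 11.4% rose and 10.5% fell. The median change of the list was -0.09 against 0.005 over all genes. The list held 25 genes of the deposited table. Mepe passed the filter only through its uremic values, so the counts and median describe the members that passed. The risers were acidic glycoproteins that bind mineral, an osteocyte product and a regulator. Spp1 (osteopontin, which binds apatite and limits crystal growth) had 8384, 7081, 5498, 3919 and 7881 FPKM in uremic aortas, against 612, 383, 403, 458 and 359 FPKM in control aortas. Ibsp (bone sialoprotein, which binds apatite and can seed it; chromosome 14, 6789268 to 6802232 in rn5) read 78.2, 79.7, 49.2, 61.3 and 80.6 FPKM in the uremic rats and 3.16, 0.810, 3.72, 2.28 and 2.24 FPKM in the control rats (log2 change 4.41, SE 0.24, adjusted p = 2.3e-07). The lowest uremic values of both genes were several times the highest control values. The osteocyte phosphoglycoprotein Mepe was listed at 12.6, 18.3, 5.92, 5.51 and 13.3 FPKM in uremic rats and at 0 in all 5 control rats. Sost (sclerostin, the Wnt antagonist of osteocytes) ranged over 64.5 to 207 FPKM in uremic aortas and 4.29 to 19.4 FPKM in control ones, and Runx2, the master regulator of osteoblasts, over 2.79 to 7.94 FPKM in uremic aortas and 0.856 to 1.77 FPKM in control aortas. Other members went down. Col1a1, a chain of type I collagen and the main protein of bone, had 799, 250.1, 1360.4, 375 and 675 FPKM in uremic rats against 1725, 1442, 1828, 1118 and 1467 FPKM in control rats, so that uremic rat 20 lay inside the control range (log2 change -1.35, SE 0.37, adjusted p = 0.019). Smpd3, a sphingomyelinase whose loss in mice leaves bone poorly mineralised, fell to 3.02 ± 2.14 FPKM in uremic aortas and 16.6 ± 7.11 FPKM in control aortas (log2 change -2.18, SE 0.35, adjusted p = 0.00078). Dlx5, a homeobox factor of osteoblasts, was also lower, with 3.43 to 5.01 FPKM in uremic aortas and 5.19 to 12.6 FPKM in control aortas. Sparc (osteonectin), one of the most abundant transcripts, was not called at 6484 ± 2504 FPKM in uremic aortas and 8769.5 ± 1184 FPKM in control ones.

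Among 13 tested inhibitors and phosphate genes 5 rose (38.5%, against 11.4% of all genes), 1 fell and 7 were not called. Mgp, Ankh, Enpp1 and Nt5e were among those that rose. Pyrophosphate is made outside the cell by Enpp1, is exported by Ankh and blocks apatite growth. Ankh read 131, 92.5, 125, 70.5 and 206 FPKM in uremic aortas and 28.6, 27.4, 21.4, 27.4 and 22.4 FPKM in control aortas, Enpp1 21.0, 15.8, 21.0, 12.7 and 28.9 FPKM in uremic aortas and 6.20, 8.86, 6.88, 7.45 and 7.82 FPKM in control aortas, and Nt5e, which turns AMP into adenosine, 47.0, 72.7, 43.8, 33.4 and 56.4 FPKM in uremic aortas and 12.7, 13.0, 11.8, 9.60 and 9.91 FPKM in control aortas. None of these 3 genes overlapped between the groups, and uremic rat 27 had the lowest uremic value of each. Slc20a1, a sodium-phosphate cotransporter of smooth muscle, was higher by a smaller amount (log2 change 0.85, SE 0.18, adjusted p = 0.0055). The member that fell was Alpl, the phosphatase that breaks pyrophosphate down, at 9.73 to 35.4 FPKM in uremic aortas and 33.6 to 43.0 FPKM in control ones (log2 change -0.96, SE 0.28, adjusted p = 0.03). Its call was lost in 7 of 10 fits that left out 1 rat each, with an adjusted p of up to 0.063.

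**Figure D3:**
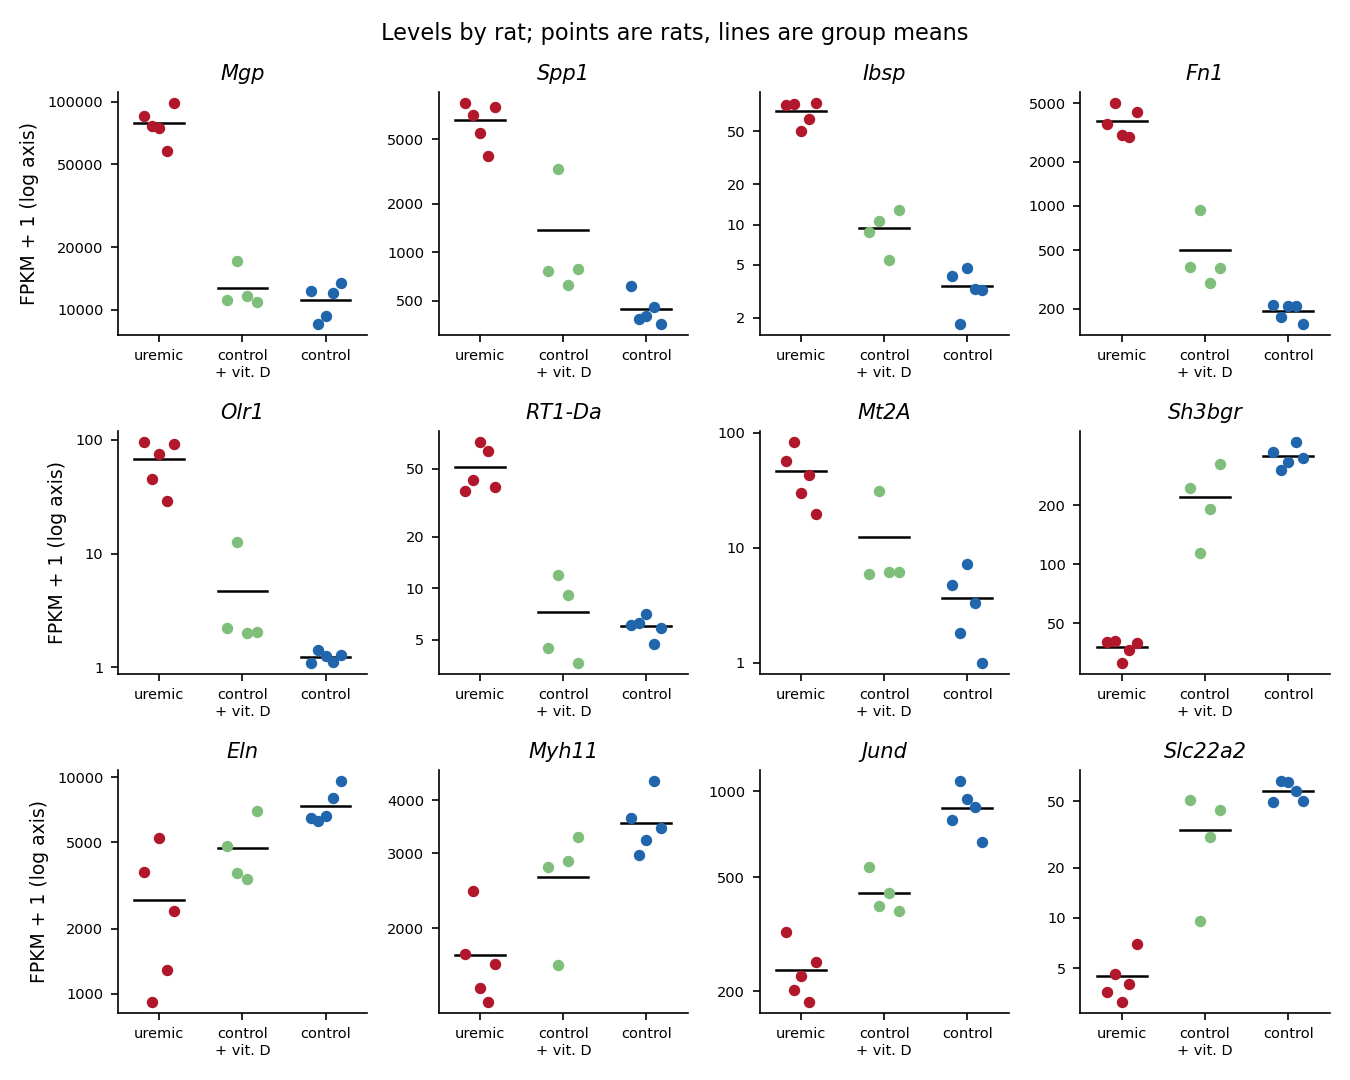
FPKM + 1 of 12 genes on log axes, 1 point per rat and a line at the group mean, for 5 uremic rats (red), 4 control rats given vitamin D (green) and 5 control rats (blue). In all 12 panels the uremic points lie wholly above or wholly below the control points; for Ibsp the uremic rats span 49.2 to 80.6 FPKM and the control rats 0.810 to 3.72 FPKM.

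Of 12 tested chondrocyte genes 8 rose and 2 fell, against 11.4% and 10.5% of all genes, and the median change was 0.89. Some members passed the filter only through their uremic values, so the count and median describe the members that passed; with no filter 8 of 19 rose and the median was 0.32. Comp, a pentameric protein that bridges collagens, had 374, 242, 235, 203 and 444 FPKM in uremic rats against 19.1, 15.3, 22.5, 29.4 and 15.7 FPKM in control rats (log2 change 3.79, SE 0.23, adjusted p = 5.5e-07). Acan (aggrecan, the large proteoglycan that holds water in cartilage) reached 3.94 to 21.8 FPKM in uremic aortas and 0.135 to 0.724 FPKM in control aortas, where it sat under the filter level. Prg4 (lubricin) read 46.0, 185, 49.4, 82.1 and 74.5 FPKM in the uremic and 7.203, 9.34, 6.42, 5.78 and 7.84 FPKM in the control rats, with uremic rat 17 far above the other uremic rats. Cilp and Chad, matrix proteins of cartilage, were higher by 1.73 and 1.24 on the log2 scale (adjusted p = 1.8e-05 and 0.0015). The 2 exceptions fell: Ucma, a small Gla protein of cartilage that like Mgp binds calcium, was listed at 0, 0.559, 0, 0.565 and 0 FPKM in uremic aortas and 3.97, 7.36, 8.63, 5.49 and 5.49 FPKM in control ones (log2 change -2.55, SE 0.22, adjusted p = 8.9e-06). Mgp and Ucma, which share the vitamin K-dependent Gla residues, thus moved in opposite directions in the same rats. Matn4, a matrilin, passed at an adjusted p of 0.029 and lost its call in 6 of 10 fits that left out 1 rat each.

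In the rest of the matrix, several adhesive glycoproteins rose, while elastin and some other elastic fibre genes fell. Fn1 (fibronectin; chromosome 9, 78674438 to 78743407 in rn5) had 3596, 5006, 3021, 2944 and 4323 FPKM in uremic aortas and 212, 176, 209, 206 and 157 FPKM in control ones, a 19.7-fold difference of means (log2 change 4.27, SE 0.17, adjusted p = 1.4e-08). Thbs1 and Thbs4, thrombospondins that bind calcium and matrix proteins, reached 44.9, 57.0, 56.7, 24.5 and 88.5 FPKM and 50.0, 79.8, 46.9, 40.8 and 60.0 FPKM in the uremic rats. In control rats Thbs1 read 0.728, 1.06, 2.43, 0.745 and 1.22 FPKM and Thbs4 3.79, 4.37, 1.49, 3.01 and 3.02 FPKM. Every uremic value of both genes exceeded every control value at least several times over. Postn (periostin) and Smoc2, both matricellular proteins, rose by 3.23 and 2.59 on the log2 scale (adjusted p = 1.8e-06 and 1.7e-05). Of the 27 tested matricellular genes 13 rose (48.15%, against 11.4% of all genes) and 3 fell (11.1%, near the 10.5% of all genes). Spon1, an F-spondin, was among those that fell (log2 change -1.23, SE 0.24, adjusted p = 0.0035).

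Elastic fibres carry the recoil of the aorta and are a known early site of medial mineral. Eln (elastin, the core of the fibre; chromosome 12, 26978747 to 27022485 in rn5) had 3641, 918, 5263, 1287 and 2411 FPKM in uremic aortas, against 6498, 6244, 6617, 7987 and 9598 FPKM in control aortas (log2 change -1.71, SE 0.41, adjusted p = 0.0096). Its uremic values spread widely, with rats 17 and 27 lowest and rat 20 highest, and none reached the control range. Mfap2, a microfibril glycoprotein, and Fbln1 (fibulin 1) were lower by similar amounts (-1.69 and -1.68 on the log2 scale). Ltbp4, a latent TGF-beta binding protein that is needed for elastic fibre assembly in mice, read 57.1, 74.3, 59.8, 44.4 and 57.0 FPKM in uremic and 196, 199.5, 161, 191 and 148 FPKM in control rats. Its relative Ltbp2 went the other way, at 522 to 1153 FPKM in uremic aortas and 133 to 211 FPKM in control ones. Of 16 tested elastic fibre genes 5 fell (31.25%, against 10.5% of all genes) and 1 rose (6.25%, against 11.4%). The other 10 were not called, and the median change of the list was -0.12. Fibrillar collagens were divided. The 4 defining fibroblast markers summed to 177 to 328 FPKM in uremic aortas and 320 to 529 FPKM in control ones, with 2 called lower and 0 higher; their part in the collagen values was not tested. Col3a1 fell along with Col1a1 (log2 change -1.01, SE 0.25, adjusted p = 0.012), while Col5a2, a minor fibrillar chain, and Col8a1, a short-chain collagen of vessel walls, rose (1.05 and 2.39; adjusted p = 0.00058 and 1.8e-05).

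Matrix proteases changed both ways. Of 27 tested metalloproteases and inhibitors 5 were higher (18.5%) and 7 lower (25.9%), against 11.4% and 10.5% of all genes. Mmp12, the macrophage elastase, was listed at 0 in all control rats and at 2.87, 1.81, 4.74, 2.13 and 3.89 FPKM in uremic rats. In control rats given vitamin D it was at 0.419, 4.57, 0 and 0.663 FPKM. The list held 39 genes of the deposited table, and Mmp12 passed the filter only through its uremic values. The inhibitor Timp1 rose to 129 ± 34.5 FPKM in uremic aortas and 36.3 ± 10.3 FPKM in control aortas. The aggrecanase Adamts15 and the microfibril-associated Adamts10 fell (-1.59 and -1.14; adjusted p = 9.9e-05 and 0.00026). Tgm2, a transglutaminase that crosslinks fibronectin and osteopontin, had 92.4 to 143 FPKM in uremic aortas and 188 to 208 FPKM in control ones (log2 change -0.83, SE 0.12, adjusted p = 0.0005).

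Among 47 tested genes of the TGF-beta and BMP pathway 19 rose (40.4%, against 11.4% of all genes) and 6 fell (12.8%, near the 10.5% of all genes). Secreted antagonists did not move together. Grem1 and Fst, which bind BMPs and activins, rose (log2 change 1.44, SE 0.22, adjusted p = 0.00052 for Grem1; log2 change 1.59, SE 0.22, adjusted p = 0.00026 for Fst). Fstl3 and Twsg1 (twisted gastrulation, which binds BMPs with chordin) fell. Twsg1 had 72.8, 80.0, 79.9, 61.9 and 79.0 FPKM in uremic rats against 246, 238, 237, 196 and 208 FPKM in control rats, with no overlap. Bmp1, the protease that trims procollagen, was lower as well (log2 change -0.74, SE 0.17, adjusted p = 0.0084). In the Wnt list 6 of 29 tested members rose (20.7%) and 3 fell (10.3%, near the share of all genes). Nkd2, a feedback inhibitor of Dishevelled, read 79.2, 65.7, 45.3, 26.7 and 64.0 FPKM in the uremic and 5.35, 8.95, 8.59, 13.5 and 5.65 FPKM in the control rats. Of the secreted Frizzled-like inhibitors, Sfrp4 rose and Frzb fell (1.18 and -0.86; adjusted p = 0.0052 and 0.00043), and of the ligands Wnt16 rose and Wnt5b fell (1.84 and -1.49; adjusted p = 5.7e-05 and 0.0035). Of 26 tested genes of FGF signalling and MAP kinase feedback 13 rose and 1 fell, with a median of 0.73 (13 of 30 higher and a median of 0.47 with no filter). Those that rose included transcripts that cells make when the ERK pathway is active: Etv4 stood at 7.72, 5.04, 5.47, 3.10 and 4.83 FPKM in uremic rats and at 0.154, 0, 0.206, 0 and 0 FPKM in control rats, and the brakes Spry4, Dusp5 and Spred3 were higher by 1.26, 1.73 and 1.39. Fgf12, an intracellular relative of the FGFs that binds sodium channels, was the member that fell (log2 change -1.40, SE 0.22, adjusted p = 0.00063).

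The largest rise by log2 change was that of Olr1 (LOX-1, a scavenger receptor for oxidised LDL on endothelium, macrophages and smooth muscle; chromosome 4, 211883404 to 211905489 in rn5). It had 94.6, 43.9, 74.8, 27.9 and 91.4 FPKM in uremic aortas, 1.201, 11.7, 0.988 and 1.06 FPKM in those of control rats given vitamin D and 0.0957, 0.417, 0.256, 0.118 and 0.288 FPKM in control aortas (log2 change 5.64, SE 0.29, adjusted p = 1.9e-07). The control level rests on a median of 2 reads per library, against 858 in uremic libraries, so no fold is given. Its promoter is shown because AP-1 genes are described further down. Any part of AP-1 in the rise of Olr1 was not tested. The RefSeq sequence on build GRCr8, chr4:164634498-164634797 on the minus strand, runs from 250 bases before to 50 after the gene start. Capitals mark an AP-1 motif, TGANTCA, which begins 30 bases before the start; the motif reads the same on both strands and occurs in 4.74% of 7405 promoters of tested genes.
Olr1: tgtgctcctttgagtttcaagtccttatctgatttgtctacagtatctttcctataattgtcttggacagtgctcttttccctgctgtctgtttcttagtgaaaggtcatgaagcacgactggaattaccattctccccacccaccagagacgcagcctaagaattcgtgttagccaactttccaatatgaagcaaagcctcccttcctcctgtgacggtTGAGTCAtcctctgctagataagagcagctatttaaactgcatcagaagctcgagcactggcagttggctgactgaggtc

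Most tested macrophage transcripts rose. Of 28 tested members of the macrophage list 25 were called higher and 0 lower, against 11.4% of all genes called higher, and the median change was 1.55. The list held 31 genes of the deposited table, and the count and median describe those that passed the filter. Lyz2 (lysozyme) had 269, 254, 329.5, 196 and 264 FPKM in uremic rats against 35.6, 27.1, 58.8, 16.7 and 30.0 FPKM in control rats. Cd68, a lysosomal protein of phagocytes, read 25.7, 29.3, 39.2, 40.6 and 46.4 FPKM in uremic aortas and 9.57, 5.48, 8.00, 4.78 and 15.6 FPKM in control aortas, and Gpnmb, a glycoprotein of lipid-laden and bone-resorbing phagocytes, 62.5, 109.9, 69.1, 62.0 and 60.4 FPKM in uremic aortas and 19.0, 16.1, 12.1, 7.83 and 12.8 FPKM in control aortas. No uremic rat fell within the control range for any of them. The 4 defining macrophage markers summed to 312 to 464 FPKM in uremic aortas and 32.7 to 94.3 FPKM in control ones, while those of T cells summed to 0.628 to 5.03 FPKM in uremic aortas and 0.465 to 1.93 FPKM in control ones. In bulk tissue, more or fewer cells of a type and more or less RNA per cell cannot be told apart. The defining endothelial markers summed to 103 to 219 FPKM in uremic aortas and 120 to 167 FPKM in control ones, ranges that overlapped. Of 21 tested members of the endothelial list 3 rose (14.3%, near the 11.4% of all genes) and 1 fell, and 9 in all were called without uremic rat 27. Those that rose include Sele (E-selectin), which catches leukocytes, and Plvap, a protein of endothelial diaphragms (1.40 and 1.57; adjusted p = 0.00067 and 7.6e-06). Esm1 (endocan, a proteoglycan secreted by endothelium), which is in no list, had 42.8, 43.6, 33.7, 26.9 and 31.2 FPKM in uremic rats against 2.07, 3.60, 2.07, 2.11 and 3.98 FPKM in control rats.

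All 8 tested members of the MHC class II list, which present antigen to CD4 T cells, were higher in uremic aortas, with a median of 2.92 (8 of 10 with no filter, median 2.25). Cd74, the invariant chain that guides class II molecules, had 312, 238, 601, 392 and 247 FPKM in uremic aortas and 22.7, 19.0, 39.96, 20.9 and 39.0 FPKM in control ones (log2 change 3.59, SE 0.27, adjusted p = 3.6e-06). RT1-Da, a class II alpha chain, had 36.0, 42.1, 70.7, 62.8 and 38.2 FPKM in uremic aortas and 5.12, 5.25, 6.04, 3.70 and 4.84 FPKM in control ones (log2 change 3.05, SE 0.19, adjusted p = 8e-07). The chains RT1-Ba, RT1-Bb and RT1-Db1 rose by 2.78, 3.16 and 3.11. Reads of related RT1 genes can be shared by the authors' counting, and the level of a single chain is uncertain to that extent. The genes have a known promoter code, an X box followed at a set distance by a Y box, and the sequence of RT1-Da is given to show it.
RT1-Da: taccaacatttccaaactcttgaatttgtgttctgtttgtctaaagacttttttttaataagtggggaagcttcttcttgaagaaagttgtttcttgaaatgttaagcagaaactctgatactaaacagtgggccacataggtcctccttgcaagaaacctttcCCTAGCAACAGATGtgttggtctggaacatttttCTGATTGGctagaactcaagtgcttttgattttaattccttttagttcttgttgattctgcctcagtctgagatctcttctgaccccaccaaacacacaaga
This is RefSeq's sequence on GRCr8, chr20:4515165-4515464, plus strand, of the BN reference strain and not of the Dark Agouti rats used here. Capitals mark the conserved X box, 86 bases before the start, and a Y box (CTGATTGG), 52 bases before it, with 20 bases between them. Of 7 class II promoters found, 2 held the X box (RT1-Da and RT1-Bb, where 19 bases separate the motifs) and 4 the Y box. Over 7405 promoters of tested genes the shares were 0.230% and 4.89%, both strands searched. The motifs were not particular to class II. In the class I and immunoproteasome list 4 of 19 promoters held the X box and 7 of 19 the Y box. Class I genes moved less: 4 of 21 tested class I and immunoproteasome genes rose (19.05%, against 11.4% of all genes). B2m (beta-2 microglobulin) was among them (log2 change 0.58, SE 0.14, adjusted p = 0.01).

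Soluble inflammatory genes followed. In the complement and coagulation list 20 of 36 tested members rose and 0 fell (median 0.86). In the list of cytokines, chemokines and adhesion 22 of 41 rose and 0 fell (median 0.81). Before the filter the lists held 41 and 54 genes of the deposited table. Il6, for example, passed it only through its uremic values, so these counts and medians describe the members that passed. Serping1, the C1 inhibitor, had 584, 1061, 563, 505 and 540.2 FPKM in uremic aortas and 159.9, 143, 171, 94.0 and 131 FPKM in control ones. Cd55, which speeds the decay of complement convertases, read 33.4, 18.7, 35.6, 24.2 and 60.2 FPKM in uremic aortas and 3.71, 6.14, 2.88, 0.961 and 2.75 FPKM in control aortas. Il6, an inflammatory cytokine, was at 10.9, 9.29, 21.3, 6.25 and 5.89 FPKM in the uremic rats and 0.344, 0.300, 0.459, 0 and 0.690 FPKM in the control rats. Ccl2, the main chemokine for monocytes, was at 33.9, 8.81, 27.7, 14.0 and 46.7 FPKM in uremic aortas and 0, 2.01, 3.08, 1.70 and 3.70 FPKM in control aortas. Uremic rat 20 had the highest Il6 value and uremic rat 28 the highest Ccl2 value, and no uremic value of these 4 genes lay in the control range. Of 41 tested interferon-induced genes 5 rose and 5 fell (12.2% each), near the 11.4% and 10.5% of all genes. Ifitm1 was up (log2 change 1.81, SE 0.17, adjusted p = 1.6e-05) and Bst2 down (log2 change -0.85, SE 0.19, adjusted p = 0.0071).

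**Figure D4:**
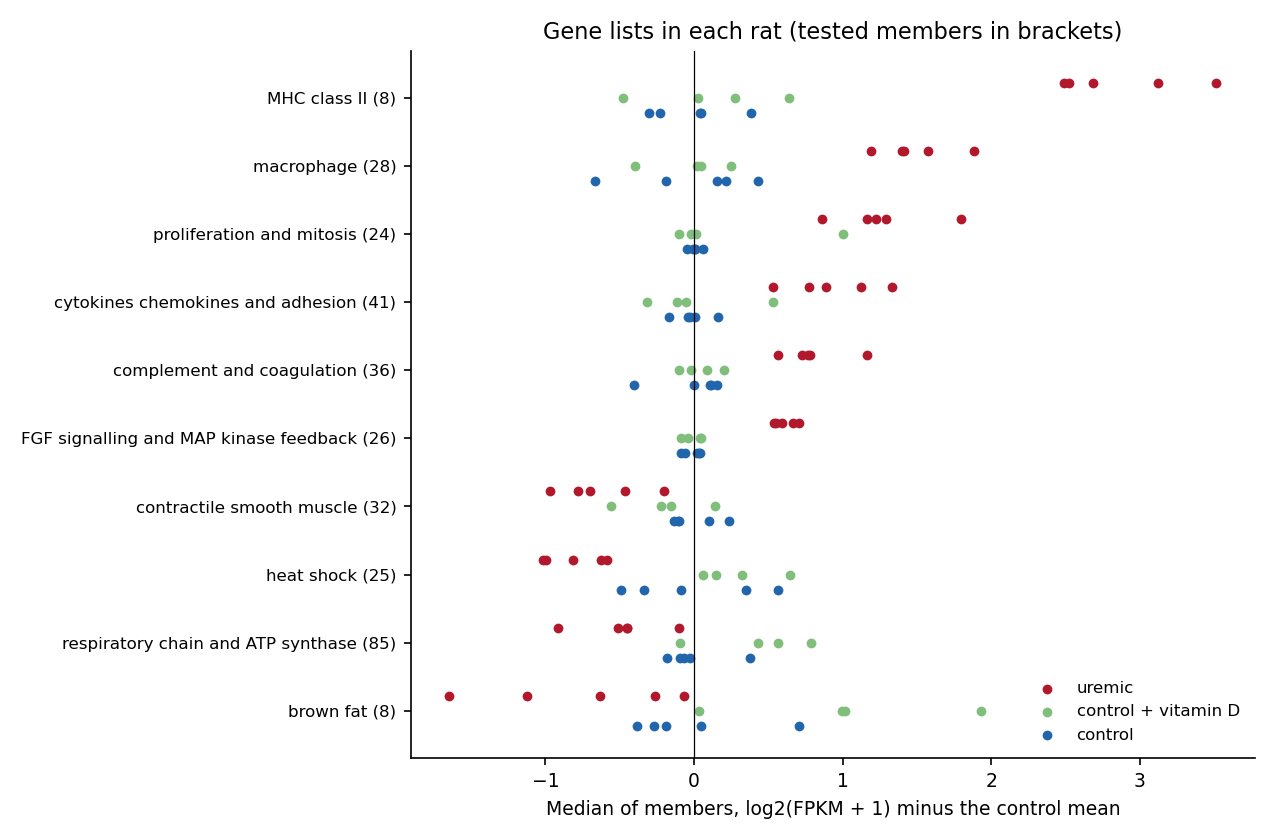
For each of 10 gene lists, a point gives the median over the list's tested members of 1 rat's log2(FPKM + 1) minus the control mean of the member, for uremic rats (red), control rats given vitamin D (green) and control rats (blue). MHC class II medians run from 2.49 to 3.52 in uremic and from -0.31 to 0.39 in control rats, whereas brown fat medians run from -1.65 to -0.07 in uremic and from -0.38 to 0.70 in control rats and overlap.

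Metal-binding and redox genes included some of the sharpest contrasts. Mt2A and Mt1a are metallothioneins, small cysteine-rich proteins that bind zinc and copper and respond to metals, glucocorticoids and cytokines. Mt2A had 55.6, 82.4, 29.0, 41.9 and 18.9 FPKM in uremic aortas, 4.90, 30.1, 5.16 and 5.17 FPKM in those of control rats given vitamin D and 3.75, 0.818, 6.27, 2.30 and 0 FPKM in control aortas (log2 change 3.83, SE 0.50, adjusted p = 0.00019). Mt1a had 12.3, 17.7, 5.04, 15.7 and 6.88 FPKM in uremic aortas and 2.77, 0, 0, 0 and 1.85 FPKM in control ones, and Mt3 was listed at 5.86, 3.23, 1.74, 2.17 and 2.14 FPKM in uremic rats and at 0 in every control rat. The Mt2A promoter (RefSeq, GRCr8, chr19:10838659-10838958, minus strand) is printed for its repeated metal response elements. Capitals mark 4 of them (TGCACNC or TGCGCNC on either strand) and the TATAAA box; 37.2% of 7405 promoters held at least 1 such element, so a single one says little.
Mt2A: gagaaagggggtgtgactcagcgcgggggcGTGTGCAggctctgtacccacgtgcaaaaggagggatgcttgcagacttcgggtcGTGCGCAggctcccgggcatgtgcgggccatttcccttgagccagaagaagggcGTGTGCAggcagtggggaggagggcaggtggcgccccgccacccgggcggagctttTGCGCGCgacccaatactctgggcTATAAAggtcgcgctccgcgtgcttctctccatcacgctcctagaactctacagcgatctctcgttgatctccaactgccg
Gpx3, the secreted glutathione peroxidase that kidney normally supplies to plasma, had 2054, 3002, 1748, 1909 and 1390.3 FPKM in uremic aortas against 586, 415, 566, 424 and 416 FPKM in control aortas (log2 change 2.04, SE 0.20, adjusted p = 2.1e-05). The glutathione transferases Gstm2 and Gstm7, of the mu class, fell. Gstm2 read 114, 162, 110.4, 91.7 and 112 FPKM in the uremic and 584, 530.5, 579, 440.2 and 308 FPKM in the control rats, and Gstm7 18.8, 15.7, 16.5, 98.8 and 16.8 FPKM in uremic aortas and 148, 166, 206, 123.3 and 127 FPKM in control aortas; in Gstm7 uremic rat 27 stood well above the other uremic rats. The mu-class genes are close paralogs and may share reads. Over the whole redox list 9 of 37 tested members rose (24.3%, against 11.4% of all genes) and 4 fell (10.8%, near the 10.5% of all genes). In all, 8 were called without uremic rat 17 or 28 or control rat 42 or 43.

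Bone-resorbing genes rose in part. Of 12 tested osteoclast genes 4 rose (33.3%, against 11.4% of all genes) and 0 fell, and 7 rose with totals scaled without Mgp. The list held 15 genes of the deposited table, and Atp6v0d2 passed the filter only through its uremic values. Ctsk (cathepsin K, the collagenase of osteoclasts, also made by smooth muscle and macrophages) had 110.3, 90.2, 125, 68.2 and 97.5 FPKM in uremic rats against 33.2, 30.3, 34.5, 21.5 and 30.3 FPKM in control rats. Atp6v0d2, a proton pump subunit needed for osteoclast fusion in mice, was listed at 2.25, 4.96, 2.25, 2.19 and 2.46 FPKM in uremic rats and at 0 in the control rats. The classical marker Acp5 (tartrate-resistant acid phosphatase) was not called (log2 change 0.53, SE 0.18, adjusted p = 0.052). Of 43 tested lysosomal genes 13 rose (30.2%), and 20 rose with totals scaled without Mgp. The member that fell was Tfeb, a transcriptional regulator of lysosome genes (log2 change -0.60, SE 0.14, adjusted p = 0.011).

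Transcripts of dividing cells were detectable in every uremic aorta. Of 24 tested proliferation genes 20 rose and 0 fell, with a median of 1.21; with no filter 28 of 37 rose, with a median of 0.86. Prc1, which bundles spindle microtubules, had 15.7, 8.70, 20.8, 8.69 and 12.5 FPKM in uremic rats against 1.84, 1.71, 1.15, 1.81 and 1.35 FPKM in control rats. Top2a (topoisomerase II alpha) read 3.69, 2.60, 5.13, 3.12 and 3.34 FPKM in uremic aortas and 0.433, 0.126, 0.483, 0.532 and 0.580 FPKM in control aortas, and Birc5 (survivin) was listed at 4.60, 2.30, 8.19, 2.01 and 2.44 FPKM in uremic rats and at 0 in all control rats. In control rats given vitamin D Birc5 was at 1.28, 2.74, 0 and 0 FPKM. Uremic rat 20 had the highest uremic value for Birc5 and Prc1. The inhibitor of cyclin-dependent kinases Cdkn1a and the cyclin Ccnd1 rose too (0.97 and 1.88; adjusted p = 0.0023 and 0.00047). With a filter at a mean of 5 FPKM, which most of these genes miss, 2 were called.

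Contractile genes of smooth muscle were lower. Of 32 tested members 17 fell and 1 rose, against 10.5% of all genes called lower, and the median was -0.58. Myh11 (smooth muscle myosin heavy chain) had 1740.0, 2446, 1446, 1342 and 1648 FPKM in uremic aortas and 3637, 2978, 3229, 4439 and 3439.9 FPKM in control ones (log2 change -1.06, SE 0.19, adjusted p = 0.0018). Ppp1r14a, which keeps myosin phosphorylated by inhibiting its phosphatase, read 522, 377, 353, 262 and 413 FPKM in uremic aortas and 994, 815, 921, 1454 and 1008 FPKM in control aortas. Pdlim3, a Z-disc protein, was lower by a like amount (-1.42), and Cnn1 (calponin) and Nexn (nexilin) by about 1 (-0.92 and -1.04). Actin itself moved less: Acta2 had 4257 ± 1509 FPKM in uremic aortas and 7118 ± 1377 FPKM in control ones, and its adjusted p of 0.042 rose to 0.094 when single rats were left out. Tpm2, a tropomyosin, was not called (log2 change -0.29, SE 0.26, adjusted p = 0.47). The member that rose was Vim (vimentin, a filament protein of less differentiated cells), with an adjusted p of 0.04 that rose above the threshold, up to 0.09, without any one of 9 rats. Of the 32 members 17 had recovered reads, and 11 of these were called lower on reads. Regulators were mixed. Srf, the factor that drives contractile genes, had 38.8, 43.5, 33.4, 33.5 and 42.4 FPKM in uremic rats against 54.1, 53.03, 53.8, 56.8 and 59.1 FPKM in control rats, and its coactivator Myocd fell as well (log2 change -1.46, SE 0.36, adjusted p = 0.013). Klf4, a repressor of the contractile state, was not called (log2 change 0.38, SE 0.21, adjusted p = 0.22). Over 23 tested regulators 7 rose (30.4%) and 6 fell (26.1%), against 11.4% and 10.5% of all genes.

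Reads of microRNA genes in poly(A) RNA come from precursor transcripts, and mature microRNA levels were not measured. Of 25 microRNA genes that passed the filter 5 fell, against 10.5% of all genes, and 0 rose; 3 fell without control rat 41. The weakest of the 5 calls was Mir24-2 (log2 change -1.85, SE 0.61, adjusted p = 0.046), which was lost in 7 of 10 fits that left out 1 rat each and with totals scaled without Mgp. Mir23b had 0, 4.17, 0, 4.21 and 5.52 FPKM in uremic aortas and 22.2, 42.0, 14.8, 50.0 and 29.7 FPKM in control ones (log2 change -3.42, SE 0.55, adjusted p = 0.00082), on a median of 1 and 8 reads. Its neighbours and the pair of the smooth muscle locus Mir143 and Mir145 were chosen after their values were seen. Mir27b had 12.4 ± 3.86 FPKM in uremic aortas and 54.0 ± 24.5 FPKM in control ones (log2 change -1.96, SE 0.31, adjusted p = 0.00077); Mir24-1, the third hairpin of the cluster, had 15.0 ± 11.8 FPKM in uremic aortas and 39.7 ± 31.0 FPKM in control aortas and was not called (log2 change -1.31, SE 0.50, adjusted p = 0.078). Mir143 read 64.1 ± 23.1 FPKM in uremic and 172 ± 57.7 FPKM in control rats (log2 change -1.43, SE 0.30, adjusted p = 0.0051), and Mir145 71.4 ± 25.5 FPKM in uremic aortas and 149 ± 52.1 FPKM in control aortas; the Mir145 call ended without control rat 41 or 44 (adjusted p up to 0.052). The main mature strands that these hairpins give, from RefSeq on GRCr8, are printed with the seed (bases 2 to 8) in capitals. All 5 lie on minus strands, the first 2 on chromosome 18 and the others on chromosome 17, and no 2 share a seed.
miR-143-3p: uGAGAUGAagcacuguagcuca
miR-145-5p: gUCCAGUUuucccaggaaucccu
miR-23b-3p: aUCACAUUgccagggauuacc
miR-27b-3p: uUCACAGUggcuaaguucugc
miR-24-3p: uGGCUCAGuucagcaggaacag

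Ion channels and vasoactive systems changed gene by gene. Of 40 tested channels and pumps 9 rose and 9 fell (22.5% each, against 11.4% and 10.5% of all genes). The list held 51 genes of the deposited table. Kcnk2 and Kcnn4 passed the filter only through their uremic values, so the counts describe the members that passed. Kcnk2 (TREK-1, a stretch-activated potassium channel) had 12.7, 9.86, 8.10, 8.70 and 22.7 FPKM in uremic aortas and 0.114, 0.699, 0.700, 0.140 and 0.263 FPKM in control ones. Kcnn4, the calcium-activated potassium channel of proliferating smooth muscle and immune cells, read 20.0, 5.50, 11.6, 8.66 and 25.8 FPKM in uremic aortas and 0.8285, 0.361, 0.554, 0 and 0.832 FPKM in control aortas. Atp2a2 (the SERCA2 calcium pump of the reticulum) went down, to 104 ± 12.3 FPKM in uremic aortas and 219 ± 23.2 FPKM in control aortas (log2 change -1.06, SE 0.12, adjusted p = 4.8e-05). The soluble guanylate cyclase subunit Gucy1a3, a receptor part for nitric oxide, fell (log2 change -1.31, SE 0.19, adjusted p = 0.0004), whereas Prkg1, the kinase downstream of cyclic GMP, rose (log2 change 0.83, SE 0.14, adjusted p = 0.0012). Of the receptors, Crhr2, which responds to urocortins, was listed at 0.677, 0, 0.603, 0.836 and 1.15 FPKM in uremic rats and at 11.3, 12.7, 13.0, 17.9 and 8.20 FPKM in control rats. Htr1b, a serotonin receptor, rose, and Ramp1, a part of the CGRP receptor, fell (1.82 and -1.02; adjusted p = 0.00071 and 0.0038). In the renin-angiotensin and aldosterone list, Ace (angiotensin-converting enzyme) had 28.1, 56.5, 38.4, 40.4 and 46.9 FPKM in uremic aortas and 15.4, 11.7, 15.3, 10.2 and 13.4 FPKM in control ones. Hsd11b1, which regenerates active glucocorticoid inside cells, had 25.4, 30.1, 26.7, 26.1 and 26.4 FPKM in uremic aortas and 6.56, 4.91, 6.58, 3.17 and 6.59 FPKM in control ones, with the uremic rats close to each other. The mineralocorticoid receptor Nr3c2 was lower (log2 change -1.08, SE 0.16, adjusted p = 0.00047). Opioid-family precursors stood out among secreted peptides: Penk (proenkephalin) had 72.9, 51.6, 98.0, 51.6 and 75.9 FPKM in uremic against 8.66, 3.46, 3.97, 7.30 and 4.23 FPKM in control rats, and Pnoc (prepronociceptin) 43.0, 23.3, 51.4, 21.3 and 32.7 FPKM in uremic aortas and 0.369, 1.29, 1.48, 2.27 and 1.11 FPKM in control aortas.

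Immediate early genes divided by family member. Of 29 tested 9 rose (31.0%) and 6 fell (20.7%), against 11.4% and 10.5% of all genes, and 9 in all were called without uremic rat 28. Jund, an AP-1 subunit that is expressed at rest, had 320.4, 201, 224, 183 and 252.3 FPKM in uremic aortas and 794, 1086, 942, 884 and 663 FPKM in control ones (log2 change -1.89, SE 0.17, adjusted p = 1.3e-05). Jun read 66.6, 57.5, 75.5, 67.5 and 62.2 FPKM in uremic aortas and 300.3, 256, 208, 168 and 148 FPKM in control aortas. Fosl1, a Fos relative induced in migrating and dividing cells, went the other way, at 9.05, 5.35, 6.48, 2.86 and 11.8 FPKM in uremic and 0.648, 1.32, 2.02, 0.265 and 0 FPKM in control rats. Atf3, a stress-induced factor, had 27.6, 15.8, 26.5, 13.1 and 28.3 FPKM in uremic rats and 41.2, 570.0, 423, 164 and 88.0 FPKM in control rats, so that the fall rests on control values that themselves differ more than 10-fold. Heat shock genes showed the same unevenness among control rats. Of 25 tested 16 fell and 0 rose, with a median of -0.76; the number was 10 without uremic rat 17, 8 without control rat 42 and 9 without control rat 43. Hspa1b, an inducible Hsp70, had 11.8, 7.04, 10.3, 8.99 and 28.2 FPKM in uremic against 48.3, 205, 273, 79.2 and 22.3 FPKM in control aortas, and Hspb6 (Hsp20, a small heat shock protein of relaxed smooth muscle) 169.7, 157, 153, 84.7 and 159.8 FPKM in uremic aortas and 458, 356, 391, 388 and 268 FPKM in control aortas. For Hspb6 the groups did not overlap. The heat shock element was found in 5 of 19 promoters of this list and in 0.527% of all 7405. Those of Hspd1 and Hspe1, counted separately, overlap by 211 bases and hold the same sites.

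Of 85 tested respiratory chain and ATP synthase genes 30 fell (35.3%, against 10.5% of all genes) and 1 rose, with a median of -0.48. This count moved with single rats: 49 members were called without uremic rat 27, 20 without uremic rat 17, 20 or 28 or control rat 46, and 19 without control rat 41. With totals scaled without Mgp 17 fell, and with quantile normalization 19. Other lists of energy metabolism had fewer calls. Of 38 tested genes of fatty acid oxidation and the citrate cycle 5 fell (13.2%) and 0 rose; 23 were called without uremic rat 27, 2 without uremic rat 9, 17 or 28 or control rat 41, and 3 without uremic rat 20 or control rat 43 or 44, while 2 fell with totals scaled without Mgp. Of 23 tested glycolysis genes 5 fell (21.7%) and 2 rose (8.70%, against 11.4% of all genes). Of 65 tested mitochondrial ribosomal protein genes 8 fell (12.3%), and 4 with totals scaled without Mgp; 5 were called without uremic rat 20 or 28 or control rat 41, 44 or 46. Cyc1 (cytochrome c1) had 21.6, 16.5, 29.4, 23.5 and 20.0 FPKM in uremic aortas and 46.3, 40.1, 42.8, 43.5 and 62.5 FPKM in control ones. Cox4i2, the cytochrome oxidase subunit best known from lung, read 8.04 to 19.5 FPKM in uremic and 26.2 to 38.2 FPKM in control rats. Fat that stays on the aorta also contains such transcripts. Ucp1, the uncoupling protein of brown fat, had 9.18, 5.73, 23.2, 40.9 and 16.5 FPKM in uremic aortas, 141, 120.4, 289 and 62.1 FPKM in those of control rats given vitamin D and 68.3, 59.3, 107, 71.0 and 133 FPKM in control aortas (log2 change -2.36, SE 0.41, adjusted p = 0.0015). Of 8 tested brown fat genes 2 fell, and 4 were called without uremic rat 27; the defining brown fat markers summed to 106 to 521 FPKM in uremic aortas and 291 to 731 FPKM in control ones, with Elovl3 at 0. The white fat hormone Adipoq did not differ by the test, at 163 ± 150.3 FPKM in uremic aortas and 113 ± 70.5 FPKM in control ones, whereas Retn (resistin, made by rodent fat) was higher (log2 change 1.97, SE 0.38, adjusted p = 0.0029). The part of fat in the mitochondrial genes was not tested. Slc2a4, the insulin-regulated glucose transporter of muscle and fat, fell to 25.9 ± 9.72 FPKM in uremic aortas and 74.1 ± 11.02 FPKM in control aortas. Cytosolic ribosomal protein genes shifted by less: 18 of 59 fell and 2 rose, with a median of -0.33, and 13 were called without control rat 43. Rps23 was one of those that fell (log2 change -1.01, SE 0.12, adjusted p = 9.9e-05); processed copies of ribosomal genes make single members uncertain.

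The genes that fell the most belong to no single pathway. Slc22a2, an organic cation transporter known best from kidney tubules (chromosome 1, 51394023 to 51435104 in rn5), had 2.57, 3.59, 2.14, 2.99 and 6.01 FPKM in uremic rats, 49.8, 8.55, 29.6 and 43.7 FPKM in control rats given vitamin D and 48.8, 65.3, 64.6, 56.9 and 49.6 FPKM in control rats (log2 change -3.75, SE 0.19, adjusted p = 1.9e-07). Sh3bgr, a small thioredoxin-like protein best known from heart and skeletal muscle (chromosome 11, 40086044 to 40110162 in rn5), had 39.4, 39.9, 30.5, 35.4 and 38.8 FPKM in uremic rats against 371, 302, 332, 419 and 348 FPKM in control rats. With an adjusted p of 8e-09 it had the smallest p of all genes tested, and both groups were tight. Xpnpep1, an aminopeptidase that can cleave bradykinin, fell 3.77-fold by the means (log2 change -1.87, SE 0.11, adjusted p = 3.6e-07), and Atp1b2, a sodium pump subunit, 4.12-fold (adjusted p = 1.4e-06). The guidance cues Sema3c and Sema5a were lower in every uremic rat than in any control rat. Sema5a had 5.58 to 8.63 FPKM in uremic aortas and 24.7 to 36.4 FPKM in control aortas. Sema3c had 4.27 to 7.74 FPKM in uremic aortas and 17.0 to 27.8 FPKM in control aortas. The desaturases Fads2 and Fads6, the alcohol dehydrogenase Adh1 and Fndc5, the precursor of the muscle hormone irisin, were lower by -1.60, -2.65, -2.40 and -2.73. Tnxa-ps1 is annotated as a tenascin X pseudogene and may share reads with tenascin X; it fell by 2.04 on the log2 scale (adjusted p = 2.6e-06). No gene was listed at 0 in all uremic rats and at 1 FPKM or more in all control rats, whereas 6 genes met the reverse rule: Mepe, Birc5, Mmp12, Mt3, Atp6v0d2 and Kcnj15, an inward rectifier potassium channel at 1.10 to 2.70 FPKM in uremic rats.

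**Figure D5:**
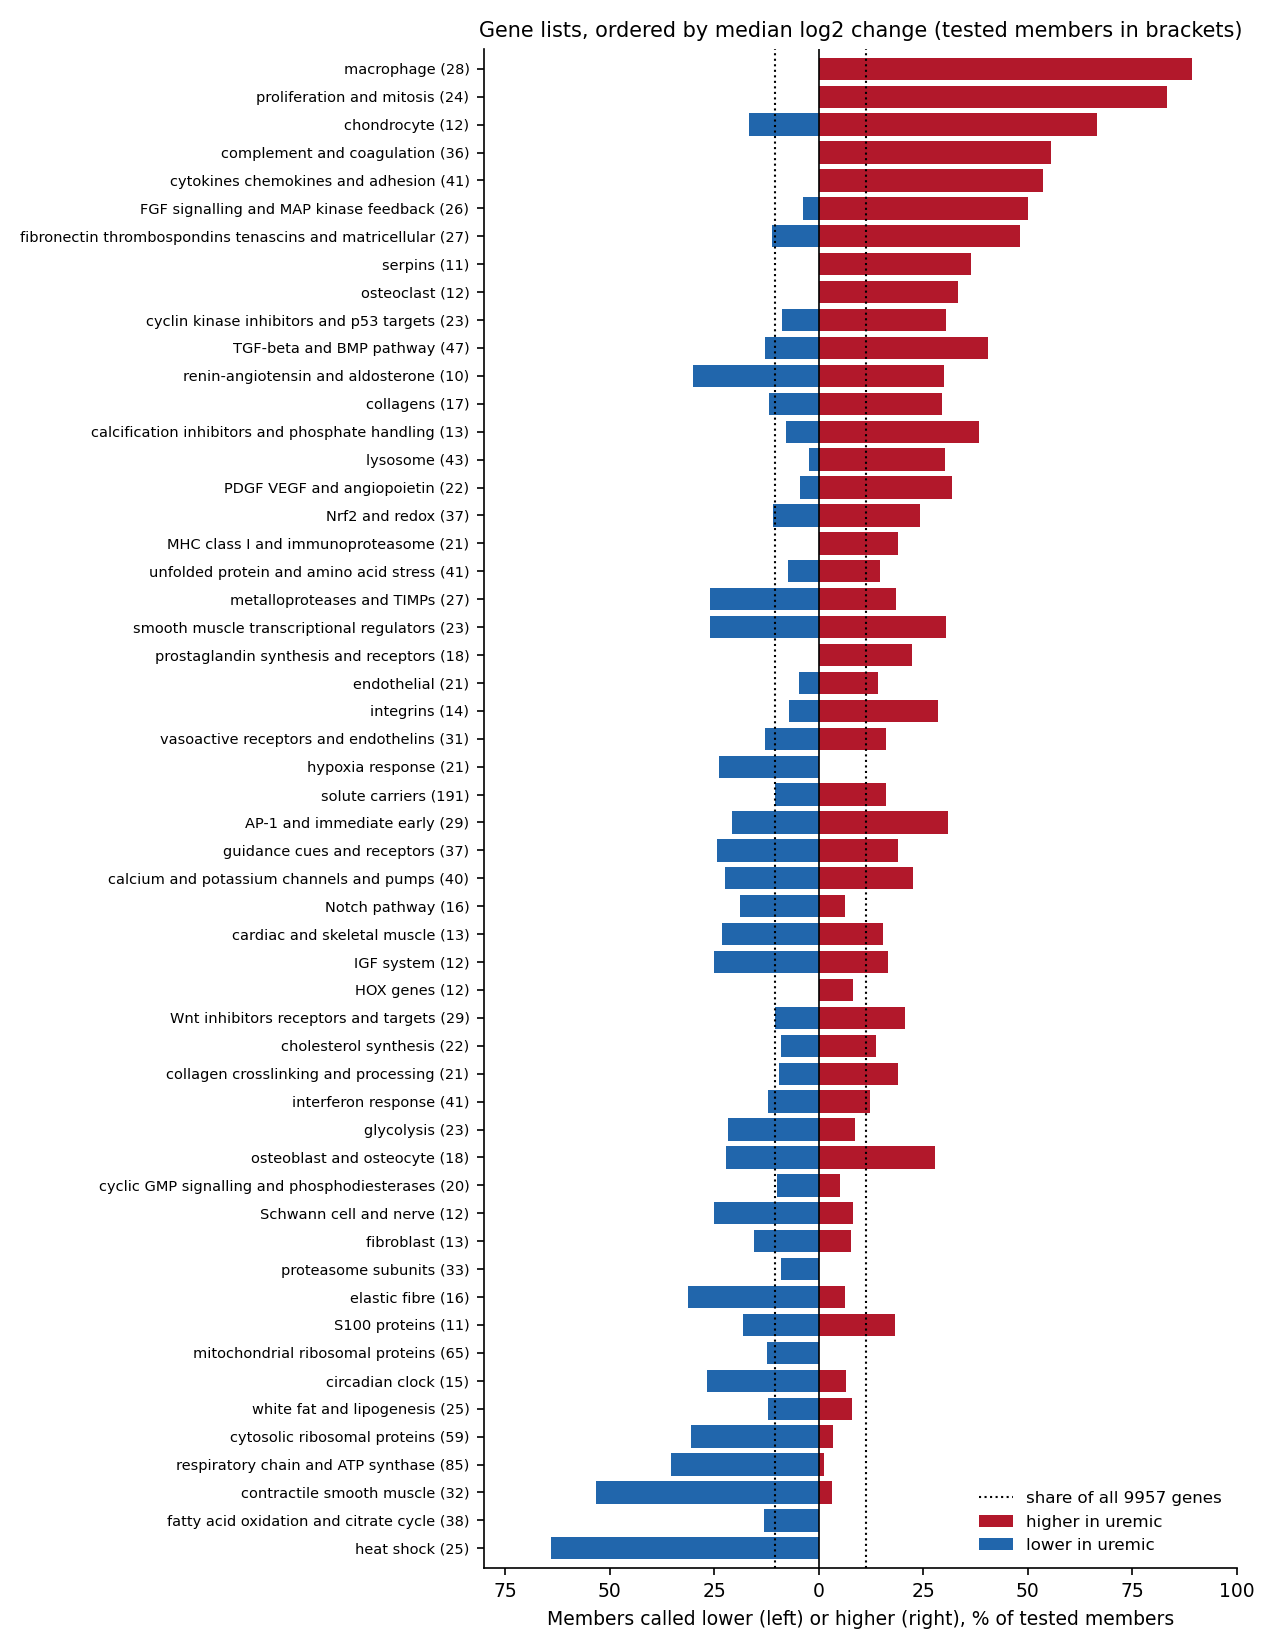
Bars give the percent of each list's tested members called higher (red, right) and lower (blue, left) in uremic aortas, for lists with at least 10 tested members in order of their median change; dotted lines mark the shares over all 9957 genes, 11.4% higher and 10.5% lower. Macrophage, proliferation and chondrocyte genes stand at the top, and heat shock, fatty acid and contractile genes at the bottom.

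Differences between uremic rats were part of the pattern. Of the 421 genes that rose by at least 1, uremic rat 27 had the lowest uremic value in 167 (39.7%) and uremic rat 20 the highest in 147 (34.9%). Among the 248 that fell by at least 1, uremic rat 17 was lowest in 77 and uremic rat 27 in 73. Some fat and liver-type transcripts in uremic rat 27 ran against this order: Cyp2e1, a cytochrome P450 of liver and fat, had 20.7, 72.2, 4.05, 551 and 17.8 FPKM in the uremic rats and 2.23, 1.36, 1.79, 1.09 and 2.91 FPKM in the control rats. The authors' deposited table gives q values of its own for this pair of groups. It listed 1905 tested genes at q under 0.05, of which 1541 were also called here and 0 in the opposite direction.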

How the data were processed

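Per the labels' protocols, poly(A) RNA was sequenced from aortas that had been dissected between heart and renal arteries, rinsed of blood and snap frozen. The submitters' processing notes list TopHat2 2.0.10, Cuffdiff, Cufflinks 2.1.1, cutadapt 1.3 and the rn5 build; settings and strand use are not given in the sources used here. The authors deposited 1 value per gene and library with no unit in the header, read here as FPKM (length- and depth-scaled fragment counts), the unit which the tools in the submitters' processing notes give. A step particular to gene and library divided them into whole reads (tolerance 0.1 read) for 96.8% of the 11294 genes that were above 0 in 8 or more libraries. The authors also deposited q values (adjusted p-values) and group means. Genes passing 1 FPKM in at least 4 of the 10 libraries entered limma 3.58.1 on log2(FPKM + 1) (lmFit, eBayes with trend, R 4.3.3), 2-sided and with Benjamini-Hochberg adjustment over 9957 genes. Folds are ratios of group means. Whole reads were used only in an added fit with limma voom; other calculations used Python 3.11.15, pandas 2.3.3 and scipy 1.17.1. On simulated data for this comparison (9957 genes, 200 of them changed) the fit recovered 76% of changes of 1 and 96% of changes of 2 on the log2 scale, with 6.01% of calls false. The 66 gene lists and the members were chosen with earlier results of these data known. Genes named were the 15 largest changes and 10 smallest p in each direction, genes at 0 in 1 group, the 10 highest genes, up to 6 members per list of smallest p with called members against their list's direction, and 28 fixed genes; exceptions are marked. Of the tested genes 7405 (74.4%) had a promoter in the RefSeq table on GRCr8. Gene positions are whole genes on rn5 as deposited, and positions of the 2 builds were not mixed. Libraries of the table without a use here: 0.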

Additional observations from a re-analysis of the deposited data

Results flagged for a closer look

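In each group of 5 rats the highest or lowest value was compared with the range of its group (Dixon's test at 95%). Of 318 groups of values, 24 had a rat that stood apart, 8 of them uremic rat 27 and 6 uremic rat 17; chance alone marks about 1 in 20. Uremic rat 27 had 4686783 recovered reads, against 1711197 to 2514214 in the other uremic rats. It was above the other uremic rats in Cyp2e1 (551 FPKM, others 4.05 to 72.2), Gstm7 (98.8 FPKM, others 15.7 to 18.8) and Lfng (16.3 FPKM, others 5.25 to 7.39). It was below them in Hspb6 (84.7 FPKM, others 153 to 169.7), Col5a2 (78.4 FPKM, others 127 to 147), Fstl3 (20.3 FPKM, others 31.4 to 35.1) and Tfeb (5.70 FPKM, others 8.26 to 8.74). For Hspb6, Fstl3 and Tfeb, genes that fell, it therefore lay on the far side from the control rats.

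Uremic rat 17 was above the other uremic rats in Serping1 (1061 FPKM, others 505 to 584), Prg4 (185 FPKM, others 46.0 to 82.1), Rps23 (149.9 FPKM, others 107 to 110.2), Gpnmb (109.9 FPKM, others 60.4 to 69.1), Hsd11b1 (30.1 FPKM, others 25.4 to 26.7) and Atp6v0d2 (4.96 FPKM, others 2.19 to 2.46). Uremic rat 28 was above them in Hspa1b (28.2 FPKM, others 7.04 to 11.8) and Mir24-1 (35.4 FPKM, others 4.81 to 12.01).

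Among control rats, rat 46 was above the rest in Adipoq (234 FPKM, others 62.6 to 107), Cyc1 (62.5 FPKM, others 40.1 to 46.3) and Dusp5 (1.64 FPKM, others 0.198 to 0.365). Control rat 44 was below the rest in Col3a1 (1223 FPKM, others 1557 to 1691) and above them in Spry4 (12.1 FPKM, others 7.97 to 8.72). Control rat 43 was above the rest in Thbs1 (2.43 FPKM, others 0.728 to 1.22) and Hbb (1396 FPKM, others 23.7 to 234), and control rat 41 in Tgm2 (208 FPKM, others 188 to 191.9). Apart from Hbb, Adipoq and Mir24-1, which were not called, and Cyp2e1, whose call was lost on recovered reads, the genes in this section kept their call under every alternative run.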

How the results depend on the processing

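No paired analysis was possible because the rats carry numbers that are not shared between the groups. Over pseudocounts of 0.1 and 0.01, filters, scalings, robust and weighted fits, a fit of all 3 groups, limma voom on recovered reads, genes with recovered reads alone (added after the data were seen) and leaving out each rat, the number of called genes lay between 1667 and 2733. Without single rats it lay between 1684 and 2224, with 881 to 1137 higher, 770 to 1087 lower and 619 to 701 past a log2 change of 1; genes without overlap numbered 1716 to 2052 there, since fewer rats must separate. A filter at a mean of 5 FPKM, which tests fewer genes, gave 752 higher, and equal totals gave 1581 lower, both beyond 1.5 times the reported counts. The difference in the Mgp share lay between 12.5 and 14.0 percentage points without single rats, against 13.4 with all. The count of genes at 0 in all control rats was 6 to 8 without single rats and 11 at a level of 0.5 FPKM; the reverse count was 0 to 2 without single rats (2 without uremic rat 27) and 2 when up to 0.1 FPKM counted as absent.

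Of 155 genes named, 142 kept their call under every alternative. Acta2, Tagln, Vim, Matn4, Alpl, Mir145 and Mir24-2 lost it without single rats; Acta2, Tagln and Vim also lost it with no filter, and Acta2 and Tagln with quantile normalization. Cyp2e1 lost it on recovered reads, Mir24-2 with pseudocounts of 0.1 and 0.01, no filter, totals without Mgp and the robust fit, and Acp5 was called with array weights, with totals without Mgp and without uremic rat 17 or 27. Without single rats, Mir24-1 was called (without uremic rat 28 or control rat 44), as were Hbb (without control rat 43) and Klf4 (without uremic rat 17). A filter at a mean of 5 FPKM left 16 of 18 macrophage, 11 of 22 cytokine and 3 of 10 IGF genes called. Adipoq, not called, lay between -0.16 (without uremic rat 27) and 0.59 (without control rat 46). Causes were not tested. Of 1516 counts of list members under alternatives, 1346 stayed within 1.5 times. Genes under 2 FPKM rest on a median of 6 control reads, and changes there were measured with a median SE of 0.22, against 0.13 to 0.15 at 30 FPKM or more.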

Other observations

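Some growth factor and signalling genes outside the calcification, inflammation and muscle lists were also called. In the list of IGF genes 2 of 12 tested members rose (16.7%) and 3 fell (25%), against 11.4% and 10.5% of all genes. Stc2 (stanniocalcin 2, which inhibits the release of IGF from a binding protein) had 6.05, 5.34, 6.11, 5.54 and 5.30 FPKM in uremic and 0.395, 0, 0.528, 0 and 1.59 FPKM in control aortas (log2 change 2.24, SE 0.24, adjusted p = 3.9e-05), while its relative Stc1 went down (log2 change -0.84, SE 0.17, adjusted p = 0.004). Igf2, the fetal-type growth factor, fell as well (log2 change -1.01, SE 0.23, adjusted p = 0.0082). Of 16 tested Notch pathway genes 3 fell and 1 rose, near the 21.9% called over all genes. Notch3, the receptor that keeps arterial smooth muscle mature, read 15.7, 19.7, 19.6, 13.6 and 16.9 FPKM in uremic rats and 26.3, 33.3, 31.8, 27.7 and 25.2 FPKM in control rats, and its target Heyl fell with it (log2 change -1.18, SE 0.18, adjusted p = 0.0007). Lfng, a glycosyltransferase that modifies Notch receptors, was the member that rose (log2 change 1.14, SE 0.29, adjusted p = 0.013). Adm (adrenomedullin, a vasodilator peptide induced by hypoxia) had 2.38, 6.71, 7.07, 6.67 and 3.28 FPKM in uremic and 32.4, 17.8, 17.99, 14.0 and 11.4 FPKM in control aortas (log2 change -1.67, SE 0.30, adjusted p = 0.0016).

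Red blood cell transcripts varied from rat to rat. Of 6 tested genes of that list limma called 0, with 1 at an unadjusted p under 0.05, and limma voom on recovered reads called 0 as well; the median change was 1.73, and 4 were called without control rat 43. Hbb (beta globin) had 1952, 257, 352, 1051 and 141 FPKM in uremic and 155, 23.7, 1396, 34.1 and 234 FPKM in control aortas; the globin genes are close paralogs and may share reads. The part of blood in the other lists was not tested.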
